A study of Homo sapiens with 16 samples.

Results

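The genes described here are 8 ligands of receptors on natural killer (NK) cells: ULBP1, ULBP2, ULBP3, MICA, MICB, PVR, PVRL2 and CD274. They were taken by symbol from the table of raw counts, which held 23459 genes. Of the 8 ligand genes, 5 (ULBP1, ULBP2, ULBP3, PVR and PVRL2) passed the filter on low counts and were tested among 15967 genes, and 3 (MICA, MICB and CD274) stayed below it. RNA of Be(2)-C and IMR5-75, established human neuroblastoma lines, was sequenced in 16 libraries, 2 for each of 8 groups of line and treatment. In each line the 4 groups received the solvent DMSO, DAC at 1 µM for 72 h, EPZ-6438 at 1 µM for 96 h, or both drugs at those doses and times. All groups grew in RPMI medium with fetal calf serum. DAC is not spelled out in the labels; it usually stands for decitabine, a cytidine analogue that depletes DNA methylation enzymes. EPZ-6438 (tazemetostat) blocks EZH2, which writes the repressive H3K27 methylation mark. Both lines are clonal sublines of MYCN-amplified tumour lines, so a difference between them is a difference between 1 clone and another.

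NK cells kill a target cell when signals from their activating receptors outweigh those from their inhibitory receptors. ULBP1, ULBP2 and ULBP3 are membrane proteins related to MHC class I, and with MICA and MICB they are ligands of the activating receptor NKG2D and typically appear on stressed, infected or transformed cells. PVR (CD155) and PVRL2 (nectin-2, CD112) are adhesion proteins that bind the activating receptor DNAM-1 and also the inhibitory receptor TIGIT. PVRL2 also binds the inhibitory receptor PVRIG. CD274 (PD-L1) binds the inhibitory receptor PD-1 on T cells and some NK cells. In neuroblastoma these ligands are studied because many tumours carry little MHC class I and are therefore possible NK-cell targets.

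DNA methylation falls on CpG dinucleotides, so the start-site regions of the 4 ligand genes with the largest changes are shown with each CpG in capitals. Each sequence runs 5′ to 3′ on the gene's own strand from 250 bases before the RefSeq transcript start to 30 bases after it. Coordinates are of GRCh38.p14, while the counts were made on hg19, and RefSeq lists PVRL2 as NECTIN2. The regions are chr6:149963693-149963972 on the + strand for ULBP1, chr6:149941764-149942043 on the + strand for ULBP2, chr6:150069092-150069371 on the - strand for ULBP3 and chr19:44846047-44846326 on the + strand for PVRL2.
ULBP1: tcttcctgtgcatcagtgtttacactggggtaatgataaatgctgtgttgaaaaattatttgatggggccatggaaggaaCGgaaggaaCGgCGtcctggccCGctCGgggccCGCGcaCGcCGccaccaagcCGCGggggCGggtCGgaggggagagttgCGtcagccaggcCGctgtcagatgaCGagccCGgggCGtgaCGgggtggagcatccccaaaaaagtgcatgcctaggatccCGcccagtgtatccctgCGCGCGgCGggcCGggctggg
ULBP2: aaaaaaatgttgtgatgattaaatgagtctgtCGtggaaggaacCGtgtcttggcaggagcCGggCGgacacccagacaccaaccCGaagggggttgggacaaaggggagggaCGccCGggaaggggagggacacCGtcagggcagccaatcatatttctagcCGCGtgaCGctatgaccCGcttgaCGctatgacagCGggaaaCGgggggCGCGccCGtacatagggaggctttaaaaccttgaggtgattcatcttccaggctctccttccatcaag
ULBP3: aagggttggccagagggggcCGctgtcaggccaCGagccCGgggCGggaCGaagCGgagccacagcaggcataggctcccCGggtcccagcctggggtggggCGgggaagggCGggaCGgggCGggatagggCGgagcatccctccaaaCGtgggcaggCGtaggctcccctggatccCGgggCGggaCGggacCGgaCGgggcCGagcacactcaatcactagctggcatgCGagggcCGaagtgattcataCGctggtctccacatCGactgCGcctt
PVRL2: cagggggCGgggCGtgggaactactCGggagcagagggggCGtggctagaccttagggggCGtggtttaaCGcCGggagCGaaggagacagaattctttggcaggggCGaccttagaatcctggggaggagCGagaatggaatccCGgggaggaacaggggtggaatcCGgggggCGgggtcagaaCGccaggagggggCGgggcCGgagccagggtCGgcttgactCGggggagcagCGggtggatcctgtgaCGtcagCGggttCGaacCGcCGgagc
These stretches hold 25, 18, 25 and 24 CpGs. Over windows of 300 bases, which run to 50 bases after the start, the 8 ligand genes had between 19 CpGs (ULBP2) and 27 (ULBP3 and PVR), and the median over 35116 RefSeq promoters was 14. ULBP2 had as many CpGs as 58.8% of promoters or more, and ULBP3 and PVR as many as 73.8% or more. No methylation was measured in these libraries.

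A few letter motifs were searched on both strands of the same windows. GGGCGG, the core of a GC box, occurred in 7 of the 8 windows and in 45% of all promoters; PVR had none. The ULBP3 window held it at 6 positions, all between 209 and 70 bases before the start. TGATGNAA, a C/EBP-ATF core, occurred in the ULBP2 window 21 bases after the start and in 3.62% of promoters, and the ULBP1 window did not hold these letters. TGACGTCA, a cyclic AMP response element, occurred in the PVRL2 window 2 bases after the start and in 1.85% of promoters. The interferon-stimulated response element occurred in the CD274 window, 208 and 202 bases before the start, and in 3.57% of promoters.

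The libraries held 9539557 to 14032155 counts, with 17952 to 19480 genes having a count. Levels are CPM, counts scaled to a common library size with TMM factors, and are given as replicate 1 and replicate 2 or as mean ± SD (n = 2). Changes are log2 ± SE, and a gene was called at an adjusted p under 0.05 in edgeR's quasi-likelihood test with Benjamini-Hochberg adjustment over all 15967 genes. The labels do not state whether the replicates were separate cultures, and p-values therefore reflect the spread of these libraries alone, which may be technical. The 16 neuroblast markers summed to between 2960 and 13600 CPM in every library, with 1 marker, STMN2, at 0 counts in both IMR5-75 DMSO libraries. TH was at 0 counts in 3 libraries, and DBH and DDC were as low as 1.18 and 2.19 CPM. MYCN, which is amplified, alone held 1190 to 5280 CPM of the sum, and CHGA 175 to 3510. Intervals of low-count levels and ratios, and floors, cover counting error only, while intervals of log2 changes come from the fit and include the spread between libraries.

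In solvent-treated cells the lines differed in the relative RNA levels of the tested ligand genes. IMR5-75 had more ULBP1, ULBP2 and ULBP3 RNA, and Be(2)-C had more PVR and PVRL2 RNA. ULBP1 stood at 0.815 and 0.918 CPM in Be(2)-C and at 15.6 and 15.1 in IMR5-75. ULBP2 stood at 0.906 and 0.459 CPM in Be(2)-C and at 8.33 and 6.31 in IMR5-75. ULBP3 stood at 0.634 and 0.275 CPM in Be(2)-C and at 10.3 and 9.42 in IMR5-75. The lowest IMR5-75 library lay above the higher Be(2)-C library for each of the 3 genes. The excess in IMR5-75 was 17.6-fold for ULBP1 (4.13 ± 0.29, adjusted p = 6.32e-11), 10.6-fold for ULBP2 (3.41 ± 0.32, 5.5e-09) and 21.2-fold for ULBP3 (4.41 ± 0.35, 3.92e-10).

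The adhesion ligands went the other way. PVR stood at 82.2 and 86.5 CPM in Be(2)-C and at 7.66 and 8.91 in IMR5-75, a 10.2-fold lower level (-3.35 ± 0.15, adjusted p = 2.97e-14). PVRL2 stood at 15.8 and 17.2 CPM in Be(2)-C and at 0.516 and 0.757 in IMR5-75, 25.8-fold lower (-4.69 ± 0.33, adjusted p = 4.87e-11). All 5 tested ligand genes were called here, 3 higher and 2 lower in IMR5-75, where 63.2% of all genes were called, so that a line difference was common. Without Be(2)-C DMSO 1 the ULBP3 value moved to 5.11, and it stayed called.

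Per kilobase of transcript, which allows genes to be compared, the order in Be(2)-C DMSO was PVR at 25.4 CPM per kb, PVRL2 at 6.69, ULBP2 at 0.506, ULBP3 at 0.461, ULBP1 at 0.276 and CD274 at 0.0996. ULBP1, ULBP2 and ULBP3 did not differ beyond their spread there, since ULBP2 had an SD of 0.234 and ULBP3 of 0.257. In IMR5-75 DMSO the order was ULBP3 at 9.99 CPM per kb, ULBP2 at 5.43, ULBP1 at 4.9, PVR at 2.49, PVRL2 at 0.258 and CD274 at 0.114. ULBP2 (SD 1.06) and ULBP1 (SD 0.109) were within their spread. By this measure PVR was the most abundant ligand RNA in one line and the NKG2D ligand ULBP3 in the other. The lengths were those of the longest coding transcript, 0.988 kb for ULBP3 and 3.142 kb for ULBP1. In mean CPM, ULBP1 (15.4) stood above ULBP3 (9.87) in IMR5-75 DMSO. In bulk RNA, fewer cells of a type and less RNA per cell cannot be told apart.

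ULBP1 rose in Be(2)-C after either drug alone and not after both together. Its Be(2)-C levels were 0.815 and 0.918 CPM in DMSO, 2.14 and 4.44 after DAC, 3.45 and 3.14 after EPZ-6438, and 0.623 and 0.734 after both drugs. Both single-drug groups lay above both DMSO libraries, and the group with both drugs lay below them. The rise was 3.71-fold after DAC (1.89 ± 0.37, adjusted p = 0.00308) and 3.77-fold after EPZ-6438 (1.92 ± 0.37, adjusted p = 0.00181). With both drugs the change was -0.36 ± 0.52 (adjusted p = 0.671), with a 95% interval of -1.44 to 0.72. The raw counts were 9 and 10 in DMSO, 26 and 48 after DAC, 38 and 34 after EPZ-6438, and 7 and 7 after both drugs. The DAC call was lost without Be(2)-C DMSO 1 (1.80, adjusted p = 0.0576) and without Be(2)-C DAC 2, the higher DAC library (1.29, adjusted p = 0.0758).

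Against each drug alone, ULBP1 was 4.75-fold lower with both drugs than with DAC (-2.25 ± 0.40, adjusted p = 0.00137) and 4.83-fold lower than with EPZ-6438 (-2.27 ± 0.40, adjusted p = 0.00121). The interaction, which is the change with both drugs minus the sum of the single-drug changes, was -4.17 ± 0.54 (adjusted p = 0.000288), with an interval of -5.29 to -3.05. By p it ranked 9 among all genes tested. It kept its call in all 13 alternatives, between -4.59 and -3.56, and without Be(2)-C DAC 2 it was -3.56. The same library moved the difference from DAC alone to -1.65, which stayed called (adjusted p = 0.0389).

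In IMR5-75, where ULBP1 began at a higher level, it stood at 15.6 and 15.1 CPM in DMSO, 18.6 and 19.6 after DAC, 16.7 and 13.9 after EPZ-6438, and 20.1 and 17.2 after both drugs. The DAC libraries and the libraries with both drugs lay above DMSO, and EPZ-6438 overlapped it. None of the changes was called: 0.31 ± 0.19 after DAC (adjusted p = 0.211, interval -0.09 to 0.71), -0.01 ± 0.19 after EPZ-6438 (interval -0.41 to 0.39) and 0.28 ± 0.19 with both (interval -0.12 to 0.68). A log2 rise of the size seen in Be(2)-C after a single drug lay outside these intervals.

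**Figure D1:**
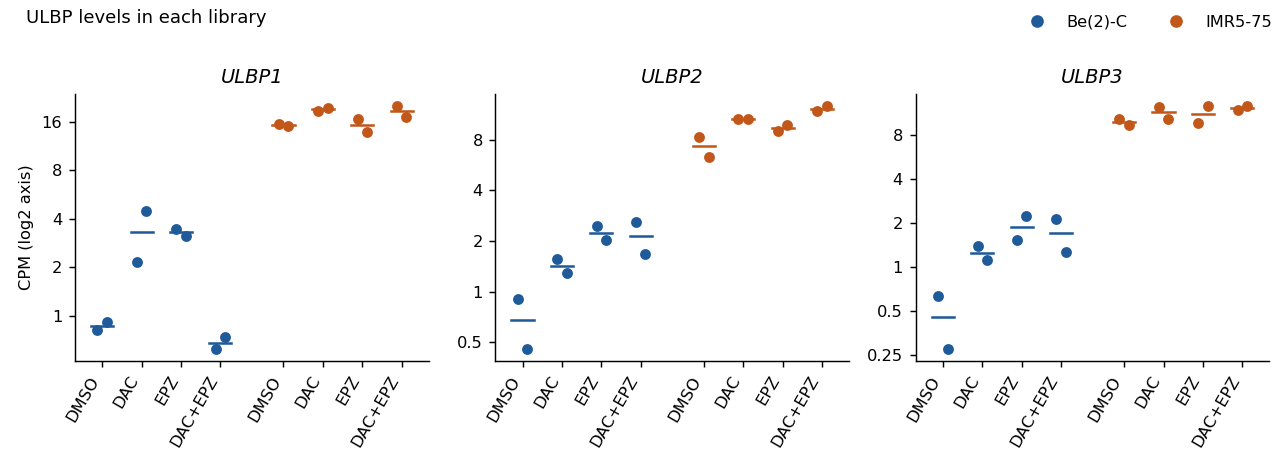
ULBP1, ULBP2 and ULBP3 in CPM on a log2 axis, for each of the 8 groups of line and treatment. Points are libraries and bars are group means; in Be(2)-C ULBP1 is high after either drug alone and at 0.623 and 0.734 CPM after both, while ULBP2 and ULBP3 stay above DMSO in all 3 treated groups.

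ULBP2 and ULBP3, which lie in the same chromosome 6 cluster as ULBP1, rose in Be(2)-C after EPZ-6438 and remained up with both drugs. ULBP2 stood at 0.906 and 0.459 CPM in DMSO, 1.56 and 1.3 after DAC, 2.45 and 2.03 after EPZ-6438, and 2.58 and 1.68 after both. ULBP3 stood at 0.634 and 0.275 CPM in DMSO, 1.4 and 1.11 after DAC, 1.54 and 2.22 after EPZ-6438, and 2.14 and 1.26 after both. Every treated library of both genes lay above both DMSO libraries. ULBP2 rose 3.25-fold after EPZ-6438 (1.70 ± 0.39, adjusted p = 0.00774) and 3.12-fold with both drugs (1.64 ± 0.40, adjusted p = 0.00478). ULBP3 rose 4.05-fold after EPZ-6438 (2.02 ± 0.47, adjusted p = 0.00812) and 3.72-fold with both (1.90 ± 0.48, adjusted p = 0.00656). After DAC alone neither was called, at 1.06 ± 0.43 for ULBP2 (adjusted p = 0.145) and 1.45 ± 0.51 for ULBP3 (adjusted p = 0.0914).

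These changes rest on raw counts of 3 to 29 per library. Be(2)-C DMSO 2 held the fewest counts of both genes, and without it no call remained: ULBP2 was 1.30 after EPZ-6438 (adjusted p = 0.126) and 1.24 with both (0.0837), and ULBP3 was 1.55 (0.124) and 1.43 (0.0963). Without Be(2)-C DMSO 1 the ULBP3 changes grew to 2.14 after DAC (not called), 2.71 after EPZ-6438 and 2.58 with both. Calls were also lost without Be(2)-C EPZ 1 (ULBP2 1.56, adjusted p = 0.053), without Be(2)-C EPZ 2 (ULBP3 1.73, 0.0776) and without the first library with both drugs (ULBP2 1.28, 0.0906; ULBP3 1.44, 0.12). Their interactions were -1.12 ± 0.53 for ULBP2 (adjusted p = 0.66) and -1.57 ± 0.63 for ULBP3 (adjusted p = 0.575), both negative and not called.

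In IMR5-75, ULBP2 stood at 8.33 and 6.31 CPM in DMSO, 10.6 and 10.6 after DAC, 9.06 and 9.75 after EPZ-6438, and 11.8 and 12.7 after both. All treated libraries lay above DMSO. It rose 1.44-fold after DAC (0.53 ± 0.20, adjusted p = 0.0454) and 1.67-fold with both drugs (0.74 ± 0.20, adjusted p = 0.00409), and differed from DMSO by 0.36 ± 0.20 after EPZ-6438 (adjusted p = 0.407). The DAC call was lost without the filter (adjusted p = 0.0577), by DESeq2 (0.101), and without IMR5-75 DMSO 2 (0.34, 0.326), DAC 1 (0.53, 0.122) or DAC 2 (0.54, 0.11). The call with both drugs was lost without IMR5-75 DMSO 2 (0.54, adjusted p = 0.0751). ULBP3 stood at 10.3 and 9.42 CPM in DMSO, 12.5 and 10.4 after DAC, 9.69 and 12.7 after EPZ-6438, and 11.9 and 12.7 after both. Its changes were 0.22 ± 0.20, 0.18 ± 0.20 and 0.32 ± 0.20, none of them called (adjusted p = 0.446, 0.717 and 0.21).

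Summed over the 3 ULBP genes, Be(2)-C held 2.35 and 1.65 CPM in DMSO, 5.1 and 6.85 after DAC, 7.44 and 7.4 after EPZ-6438, and 5.34 and 3.67 after both drugs. IMR5-75 held 34.3 and 30.9 CPM in DMSO and between 35.4 and 43.8 in the treated libraries. The highest treated Be(2)-C sum was still below the lowest IMR5-75 DMSO sum.

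The other genes of the cluster were sparse in Be(2)-C. RAET1E and RAET1L, which encode further NKG2D ligands, had at most 4 and 2 counts in any library of either line. RAET1G, another NKG2D ligand gene, had 0 to 5 counts in Be(2)-C libraries. In IMR5-75 RAET1G had 7 and 4 counts in DMSO, 22 and 19 after DAC, 5 and 5 after EPZ-6438, and 27 and 18 after both. It rose after DAC (1.79 ± 0.58, adjusted p = 0.02) and with both drugs (1.87 ± 0.57, adjusted p = 0.0102) in IMR5-75. Only in those groups were its counts high enough to pass the filter, so these calls are not independent of the filter. The DAC call was lost by DESeq2 (adjusted p = 0.0811) and without each of the 4 libraries compared (values 1.53 to 2.16), and the call with both drugs was lost without IMR5-75 DMSO 2 (1.60, adjusted p = 0.0789) and without the first library with both drugs (1.54, 0.0987).

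Because the cluster arose by duplication, some reads cannot be assigned to 1 gene. Of all 50-base windows of the ULBP2 transcript, 32.2% occurred in another transcript, 29.4% in RAET1L, against 6.85% for ULBP1 and 12.4% for ULBP3, both with RAET1K. RAET1L itself held at most 0.178 CPM, and RAET1K stood at 1.71 to 4.37 CPM in IMR5-75 and 0.0918 to 0.635 in Be(2)-C. The sources used here do not say how the authors' counting treated such reads, and the ULBP2 level is therefore less certain than those of ULBP1 and ULBP3.

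MICA and MICB, the class I-like NKG2D ligands encoded in the MHC, had almost no counts in either line. MICA had 11 counts over all 16 libraries, 0 to 2 in each, which is 0.0568 CPM with a 95% counting interval of 0.0284 to 0.102. In IMR5-75 DMSO it had 0 counts in both libraries, and a floor of 3 counts there allows up to 0.221 and 0.252 CPM. MICB had 17 counts over the 8 Be(2)-C libraries (0.194 CPM, interval 0.113 to 0.311) and 2 over the 8 IMR5-75 libraries (0.0189 CPM, interval 0.00228 to 0.0681). MICB in Be(2)-C had 2 and 1 counts in DMSO, 3 and 1 after DAC, 1 and 3 after EPZ-6438, and 4 and 2 after both drugs. The ratio with both drugs was 2.11, with a counting interval of 0.451 to 13. For MICA the ratio with both drugs in Be(2)-C was 1.58, with an interval of 0.181 to 19. A change of MICA or MICB was not detectable at this depth. All 50-base windows but 2.62% of MICA and 2.84% of MICB were unique to the gene, and 62 exon bases of MICA overlap HCP5 on the same strand.

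**Figure D2:**
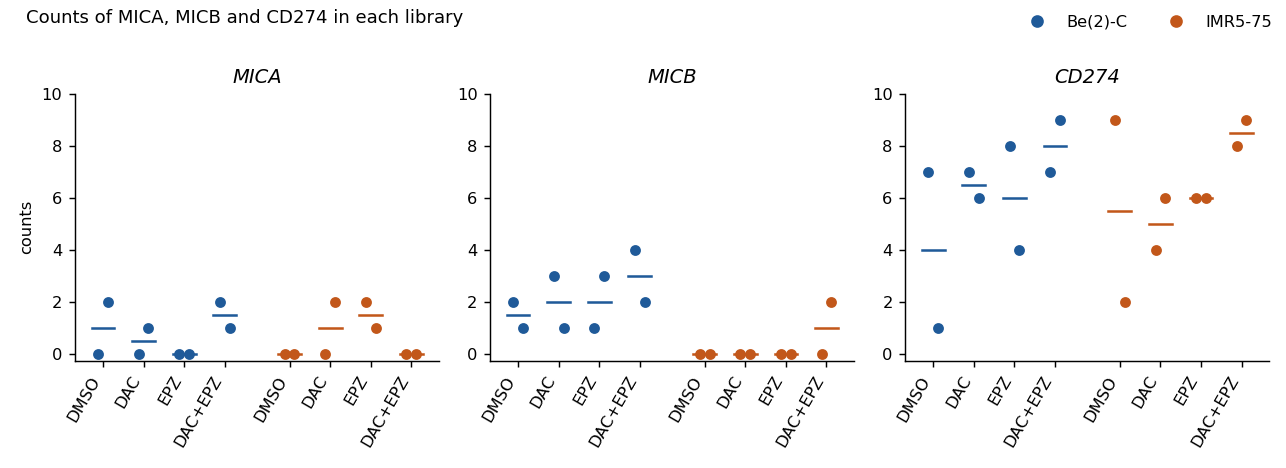
Raw counts per library (linear axis from 0) of MICA, MICB and CD274, the 3 ligand genes below the filter, in the 8 groups. Points are libraries; MICA stays at 0 to 2 counts, MICB at 0 to 4 and CD274 at 1 to 9.

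PVR, the main DNAM-1 and TIGIT ligand, rose in IMR5-75 and showed no called change in Be(2)-C. In IMR5-75 it stood at 7.66 and 8.91 CPM in DMSO, 14 and 13.9 after DAC, 14.4 and 11.4 after EPZ-6438, and 14.2 and 14.2 after both drugs. Every treated library lay above DMSO. The rise was 1.69-fold after DAC (0.75 ± 0.16, adjusted p = 0.00104), 1.56-fold after EPZ-6438 (0.64 ± 0.16, adjusted p = 0.043) and 1.72-fold with both (0.78 ± 0.16, adjusted p = 0.000429). With both drugs PVR differed from DAC alone by 0.02 ± 0.15 (interval -0.29 to 0.33). The EPZ-6438 call was lost without each of the 4 libraries compared, at 0.55 without DMSO 1, 0.75 without DMSO 2, 0.47 without EPZ 1 and 0.80 without EPZ 2 (adjusted p = 0.0534 to 0.406). It was also lost with the replicate number as a block (0.64, adjusted p = 0.0596) and with the line fitted alone (0.66, adjusted p = 0.0801), and held in 3 of 9 alternatives.

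PVR in Be(2)-C stood at 82.2 and 86.5 CPM in DMSO, 78.3 and 76.3 after DAC, 93.9 and 80.5 after EPZ-6438, and 71.3 and 84.5 after both. The changes were -0.13 ± 0.13 (interval -0.40 to 0.14), 0.05 ± 0.13 (interval -0.22 to 0.32) and -0.12 ± 0.13 (interval -0.39 to 0.15). The DAC libraries lay below DMSO and the other groups overlapped it. Despite its rise, PVR in treated IMR5-75 stayed below every Be(2)-C library.

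PVRL2 rose in both lines, and in IMR5-75 it showed the largest log2 change of any of the 5 tested ligand genes under treatment. In IMR5-75 it stood at 0.516 and 0.757 CPM in DMSO, 2.55 and 2.1 after DAC, 1.5 and 2.59 after EPZ-6438, and 5.13 and 7.35 after both drugs. The libraries with both drugs lay above those of either drug alone, which lay above DMSO. The rise was 3.67-fold after DAC (1.87 ± 0.43, adjusted p = 0.00209) and 9.81-fold with both drugs (3.29 ± 0.36, adjusted p = 2.87e-07). After EPZ-6438 it was 1.69 ± 0.45 and not called (adjusted p = 0.0534); it was called without the filter (1.67, 0.00284) and by DESeq2 (1.71, 0.0132). With both drugs PVRL2 was 2.67-fold higher than with DAC (1.42 ± 0.28, adjusted p = 0.0111) and 3.05-fold higher than with EPZ-6438 (1.61 ± 0.29, adjusted p = 0.000177). Their interaction was -0.27 ± 0.53 (adjusted p = 0.92, not called), so the log2 change with both drugs was within the error of the sum of the single-drug changes. The excess over DAC was not called without IMR5-75 DAC 2 (1.32, adjusted p = 0.128) or the second library with both drugs (1.16, 0.155). The raw counts were 7 and 9 in DMSO against 70 and 107 with both drugs.

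PVRL2 in Be(2)-C stood at 15.8 and 17.2 CPM in DMSO, 15 and 20.4 after DAC, 32.5 and 23.9 after EPZ-6438, and 29.7 and 33.1 after both. The groups given EPZ-6438 lay above DMSO, and the DAC group overlapped it. It rose 1.71-fold after EPZ-6438 (0.78 ± 0.20, adjusted p = 0.0154) and 1.91-fold with both drugs (0.93 ± 0.20, adjusted p = 0.00168), and differed from DMSO by 0.10 ± 0.20 after DAC (interval -0.32 to 0.52). With both drugs it was 1.78-fold higher than with DAC (0.83 ± 0.20, adjusted p = 0.0143), a call lost without Be(2)-C DAC 1 (0.62, 0.219) or the second library with both drugs (0.75, 0.132). The EPZ-6438 call was lost without Be(2)-C DMSO 1 (0.70, 0.159), DMSO 2 (0.84, 0.0781) or EPZ 1 (0.53, 0.169). Exons of PVRL2 share 128 bases with a gene on the opposite strand, and the strand setting of the counting is not given in the sources used here.

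**Figure D3:**
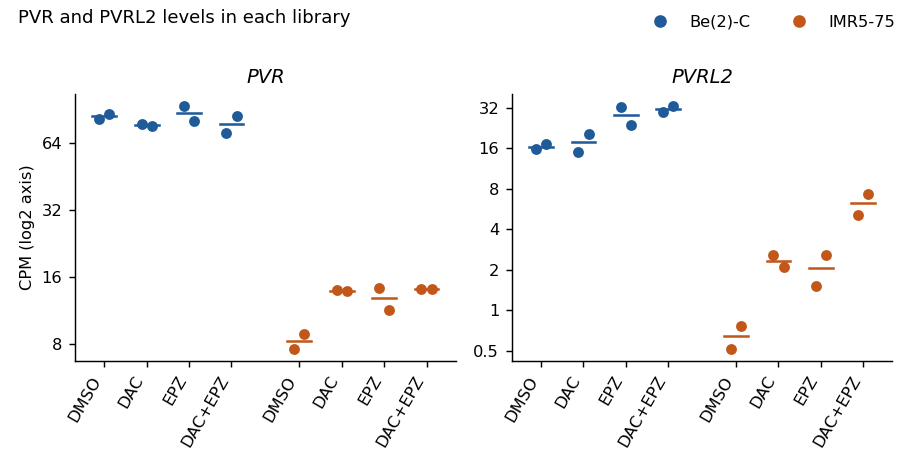
PVR and PVRL2 in CPM on a log2 axis in the 8 groups, with points for libraries and bars for group means. PVRL2 in IMR5-75 climbs from 0.516 and 0.757 CPM in DMSO to 5.13 and 7.35 with both drugs, while PVR in Be(2)-C lies between 71.3 and 93.9 in all groups.

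PVRL1, PVRL3 and PVRL4 are the other nectin genes. PVRL1 had no called change in any treatment of either line and lay between 23 and 48.5 CPM in Be(2)-C and between 4.73 and 8.35 in IMR5-75. PVRL3, which like PVRL1 was counted among the activating ligands, rose in Be(2)-C after EPZ-6438 (0.46 ± 0.15, adjusted p = 0.0477) and fell in IMR5-75 with both drugs (-0.41 ± 0.13, adjusted p = 0.0141). PVRL4, which encodes a ligand of TIGIT, rose in IMR5-75 from 6 and 2 counts in DMSO to 92 and 96 after DAC and 71 and 87 with both drugs. Its ratio was 22.2 after DAC (counting interval 11 to 52.2; edgeR 4.43 ± 0.46, adjusted p = 1.99e-07) and 17.8 with both (interval 8.83 to 42). After EPZ-6438 it had 5 and 1 counts, and Be(2)-C libraries had 0 to 3. PVRL4 therefore passed the filter only through the IMR5-75 groups given DAC, and its calls there are not independent of the filter. PVRL1, PVRL3 and RAET1K were chosen after their values were seen.

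CD274, the gene of PD-L1, was near the limit of detection in all groups. It had 49 counts over the 8 Be(2)-C libraries (0.56 CPM, interval 0.414 to 0.74) and 50 over the 8 IMR5-75 libraries (0.471 CPM, interval 0.35 to 0.622). Its Be(2)-C libraries had 7 and 1 counts in DMSO, 7 and 6 after DAC, 8 and 4 after EPZ-6438, and 7 and 9 with both drugs. In IMR5-75 it had 9 and 2 counts in DMSO, 4 and 6 after DAC, 6 and 6 after EPZ-6438, and 8 and 9 with both. The treated libraries fell within the DMSO range of CPM in 4 of the 6 treated groups. The largest ratio to DMSO was 2.11 with both drugs in Be(2)-C, with a counting interval of 0.853 to 5.7, and in IMR5-75 it was 1.4 with both drugs (interval 0.617 to 3.3). The counting intervals of all 6 ratios included 1, so no change of CD274 was detectable at this depth.

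Counted over the tested ligand genes, every call against DMSO was a rise. In Be(2)-C after DAC 1 of 5 was called higher (background 3.73% of genes higher and 2.97% lower), after EPZ-6438 4 of 5 (5.35% and 4.85%), and with both drugs 3 of 5 (13.2% and 10.4%). In IMR5-75 after DAC 3 of 5 were called higher (19.9% and 13.8%), after EPZ-6438 1 of 5 (1.63% and 0.344%), and with both drugs 3 of 5 (25.7% and 20.4%). No ligand gene was called lower in these 6 comparisons by edgeR, none was lower at an unadjusted p under 0.05 (0 in each), and DESeq2 called 0 lower. The median change of the 5 genes was 1.06, 1.70 and 0.93 in Be(2)-C and 0.53, 0.36 and 0.74 in IMR5-75, in the same order of treatments, against 0.01 to 0.05 over all genes. The 3 treatments of a line share their DMSO libraries.

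**Figure D4:**
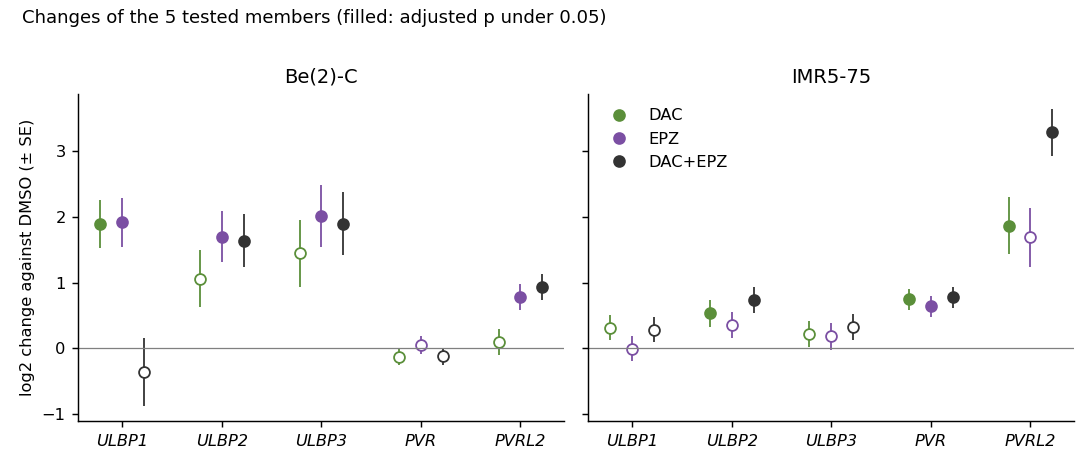
Log2 change against DMSO of the same line, with SE as error bars, of the 5 tested ligand genes after DAC, EPZ-6438 and both drugs. Filled points have an adjusted p under 0.05; ULBP1 in Be(2)-C falls back to -0.36 with both drugs, and PVRL2 in IMR5-75 reaches 3.29.

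With both drugs compared to each alone, 1 ligand gene rose and 1 fell against DAC in Be(2)-C (5.44% of all genes called), namely PVRL2 and ULBP1. Against EPZ-6438 in Be(2)-C 1 fell, ULBP1 (4.21%). In IMR5-75 PVRL2 rose in both comparisons, against DAC (1.94%) and against EPZ-6438 (37.6%). The interaction in Be(2)-C was called for 1 of 5, ULBP1, where 0.257% of genes were called. In IMR5-75 it was called for 0 of 5 by edgeR (0.0251% of genes) and for 0 by DESeq2, and 1, PVR, had an unadjusted p under 0.05 (-0.62 ± 0.22, adjusted p = 0.611).

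The log2 response of some ligand genes differed between the lines in a test of the difference itself. After DAC it was called for 3 of 5 (6.19% of genes): the change was smaller in IMR5-75 for ULBP1 (-1.58 ± 0.42, adjusted p = 0.0238) and larger for PVR (0.88 ± 0.20, adjusted p = 0.00935) and PVRL2 (1.78 ± 0.48, adjusted p = 0.0285). After EPZ-6438 it was called for 1 of 5 (1.19%), ULBP1 (-1.92 ± 0.42, adjusted p = 0.0243). With both drugs it was called for 2 of 5 (11.1%), PVR (0.90 ± 0.20, adjusted p = 0.00561) and PVRL2 (2.36 ± 0.44, adjusted p = 0.000881). With both drugs ULBP1 no longer differed by the test (0.64 ± 0.55, adjusted p = 0.534). Differences for ULBP2 and ULBP3 were negative under all 3 treatments and not called, the nearest being ULBP3 with both drugs (-1.58 ± 0.53, adjusted p = 0.0591). All are differences of log2 changes from unlike starting levels. In mean CPM ULBP1 after DAC went from 0.866 to 3.29 in Be(2)-C and from 15.4 to 19.1 in IMR5-75. PVRL2 with both drugs went from 16.5 to 31.4 and from 0.636 to 6.24. Both thus gained more CPM in the line with the smaller log2 change. PVR after DAC went from 84.4 to 77.3 and from 8.29 to 13.9, in the same order on both scales.

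Several of these differences rest on single libraries. The DAC difference of ULBP1 was not called without Be(2)-C DMSO 1 (adjusted p = 0.143), DMSO 2 (-1.67) or DAC 2 (adjusted p = 0.218), or without IMR5-75 DMSO 1 (-1.53) or DAC 1 (-1.53), and its EPZ-6438 difference was not called without Be(2)-C DMSO 1 (-1.83), DMSO 2 (-2.01) or EPZ 1 (-1.85), or without IMR5-75 DMSO 2 (-1.94), EPZ 1 (-2.02) or EPZ 2 (-1.77). The DAC difference of PVRL2 was not called without Be(2)-C DMSO 2 (1.72) or DAC 1 (1.59), or without IMR5-75 DMSO 1 (1.55), DMSO 2 (2.05) or DAC 1 (1.65). That of PVR was lost without IMR5-75 DMSO 1 (0.80, adjusted p = 0.0611). The differences with both drugs kept their calls in all 12 alternatives.

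ULBP1 is a known target of the ATF4 branch of the integrated stress response, in which the transcription factor ATF4 turns on amino acid supply and redox genes. Of 24 genes listed for this branch and for the unfolded protein response, 5 rose and 0 fell in Be(2)-C after DAC, 7 rose and 0 fell after EPZ-6438, and 1 rose and 12 fell with both drugs. Over all genes the shares called higher and lower were 3.73% and 2.97%, 5.35% and 4.85%, and 13.2% and 10.4%. The list medians were 0.25, 0.39 and -0.38, against 0.02, 0.02 and 0.05 over all genes. The list was written with earlier results of these data known, so its direction is not independent evidence. No listed gene fell after a single drug at an unadjusted p under 0.05 either (0 and 0). Without Be(2)-C DMSO 1 or DAC 2 the DAC count was 0 and without DMSO 2 it was 3, and without DMSO 1 the EPZ-6438 count was 3. The 12 that fell with both drugs were 6 without DMSO 2, 5 without the first library with both drugs and 7 without the second.

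The interaction in Be(2)-C was called lower for 7 of these 24 genes and higher for 0 (median -0.86), where 0.257% of all genes were called. SLC7A11, the cystine transporter, stood at 30.8 ± 6.54 CPM in DMSO, 66 ± 27.1 after DAC, 85.4 ± 6.75 after EPZ-6438, and 10.9 ± 2.62 with both drugs (n = 2 each). Its interaction was -4.06 ± 0.37 (adjusted p = 4.63e-06). CHAC1, which degrades glutathione, had an interaction of -2.70 ± 0.45 (adjusted p = 0.0045), and ASNS, which makes asparagine, of -1.23 ± 0.21 (adjusted p = 0.00634). TRIB3 (-1.74 ± 0.36) and STC2 (-1.57 ± 0.28) were also called. These 4 lost the call without Be(2)-C DAC 2 (-2.04, -0.98, -1.22 and -1.18) and without Be(2)-C DMSO 1 (-2.56, -1.06, -1.57 and -1.43). Each also lost it without a library given both drugs, as CHAC1 did without the first (-2.49) and ASNS without the second (-1.18), and TRIB3 (-1.39) and STC2 (-1.34) also without Be(2)-C EPZ 1; TRIB3 lost it without Be(2)-C DMSO 2 as well (-1.91). SLC7A11 kept it in all 13 alternatives, as did INHBE, an activin subunit gene (-4.99 ± 0.46), and GDF15 (-5.69 ± 0.72), a secreted stress cytokine. The RNA of ATF4 itself differed from DMSO in Be(2)-C by -0.05 ± 0.12, -0.17 ± 0.12 and -0.15 ± 0.12, none called. Translation and protein of ATF4 were not measured. The part of ATF4 in the ULBP1 changes was not tested.

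In IMR5-75 the same list went in both directions: 6 rose and 8 fell after DAC, 0 rose and 2 fell after EPZ-6438, and 6 rose and 9 fell with both drugs. The 6 of 24 that rose are near the background of 19.9% after DAC and 25.7% with both drugs, and 13.8% and 20.4% of all genes fell. The 8 were 5 without IMR5-75 DMSO 2 or DAC 2, and the 2 were 0 without any 1 of the 4 libraries compared. The interaction there was called for 0 of 24 by edgeR, with 2 higher and 1 lower at an unadjusted p under 0.05. By the naming rule, SESN2, a stress-induced inhibitor of growth signalling, rose in IMR5-75 after DAC (1.49 ± 0.17, adjusted p = 7.54e-07) and with both drugs (adjusted p = 3.87e-07). GDF15 in IMR5-75 rose 22.9-fold after DAC (4.52 ± 0.51, adjusted p = 7.5e-07) and 29.3-fold with both (4.87 ± 0.50, adjusted p = 9.75e-08), and in Be(2)-C it rose after EPZ-6438 (1.84 ± 0.35, adjusted p = 0.00143, lost without Be(2)-C DMSO 1 at 1.39) and fell with both drugs (-3.58 ± 0.66, adjusted p = 0.000437). In IMR5-75 PHGDH, the first enzyme of serine synthesis, fell after DAC (-1.40 ± 0.18) and with both drugs (-1.45 ± 0.19). SLC7A11, INHBE, CHAC1, ASNS, TRIB3, STC2 and ATF4 were chosen after their values were seen.

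**Figure D5:**
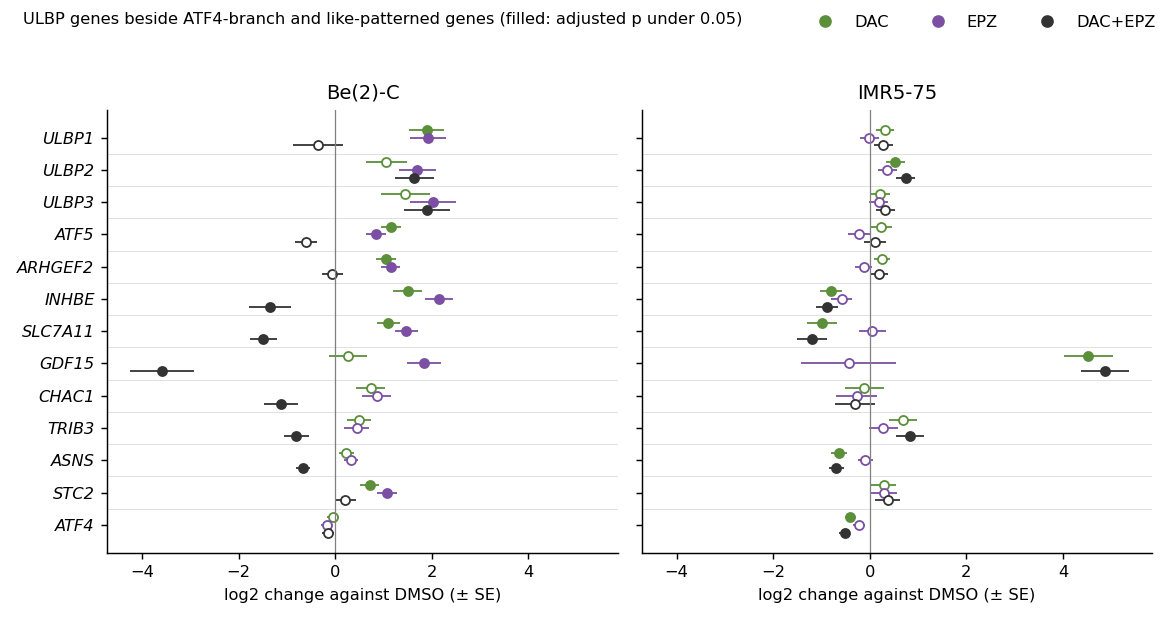
Log2 change against DMSO of the same line, with SE, of the 3 ULBP genes, 2 genes of similar pattern (ATF5 and ARHGEF2) and 8 genes of the ATF4 list, for 3 treatments and 2 lines. In Be(2)-C ULBP1, INHBE and SLC7A11 are positive after each single drug and SLC7A11 is at -1.49 with both, and the ATF4 RNA stays near 0.

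A pattern like that of ULBP1 was sought among 12644 genes, by Pearson's r over the 16 libraries after centring each line, as a description. The closest genes were ARHGEF2 (r = 0.929), ATF5 (r = 0.923), a transcription factor of the ATF4 family, and GTPBP2 (r = 0.914), a GTP-binding protein that acts in ribosome rescue. ATF5 in Be(2)-C differed from DMSO by 1.16 ± 0.21 after DAC, 0.85 ± 0.21 after EPZ-6438 and -0.61 ± 0.23 with both drugs, and its interaction was -2.62 ± 0.31 (adjusted p = 0.000107). ARHGEF2 differed from DMSO by 1.05 ± 0.20, 1.15 ± 0.20 and -0.06 ± 0.21, with an interaction of -2.26 ± 0.28 (adjusted p = 0.000232). Since both were picked for their likeness, these values describe them. The ULBP2 pattern was closest to ULBP3 (r = 0.927), SLC9A7 (0.925) and NUAK1 (0.919), and the ULBP3 pattern to ULBP2 (0.927), NUAK1 (0.926) and C1orf114 (0.921). NUAK1, an AMPK-related kinase, differed from DMSO in Be(2)-C by 1.32 ± 0.30, 2.06 ± 0.28 and 2.30 ± 0.27.

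Among the ligand genes themselves, PVR and PVRL2 had r = 0.718, ULBP2 and PVRL2 0.564, and ULBP1 only 0.279 with ULBP2 and 0.313 with ULBP3. PVR was closest to SLCO3A1 (r = 0.913), C16orf7 (0.908) and ICAM2 (0.894), and PVRL2 to KLHL36 (0.941), SPATA20 (0.937) and ITGB5 (0.936), an integrin subunit. SPATA20 rose in IMR5-75 under all 3 treatments (1.21 ± 0.14, 0.92 ± 0.14 and 1.74 ± 0.13), in the same order as PVRL2. All libraries share their normalisation, and libraries of a group share their treatment.

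Other genes listed as NK-cell activating ligands were read from a list of 20. Their activating role was taken from the list and was not tested. This holds for PVRL3, which gave both the call in Be(2)-C and the fall in IMR5-75. Of 12 tested genes of that list, 0 changed in Be(2)-C after DAC by edgeR, 1 rose after EPZ-6438 and 0 changed with both drugs, while in IMR5-75 3 rose after DAC, 0 changed after EPZ-6438, and 4 rose and 1 fell with both. The IMR5-75 counts are near the background of 19.9% of all genes called higher after DAC and 25.7% with both drugs. At an unadjusted p under 0.05 0 genes changed in Be(2)-C after DAC, and 2 rose with both drugs and 2 in IMR5-75 after EPZ-6438, where DESeq2 called 2. The single rise after EPZ-6438, PVRL3, was lost without the filter and without Be(2)-C DMSO 1, DMSO 2 or EPZ 2, and the 4 were 2 without the first IMR5-75 library with both drugs. Medians were between -0.16 and 0.30. CADM1, the ligand of CRTAM, rose in IMR5-75 from 51.3 ± 0.494 CPM to 95.9 ± 8.57 after DAC (0.90 ± 0.12, adjusted p = 5.22e-06) and 110 ± 7.97 with both drugs (1.10 ± 0.12, adjusted p = 1.85e-07). ICAM2, a ligand of the integrin LFA-1, had 0 counts in both IMR5-75 DMSO libraries and 1.49 and 0.857 CPM after DAC and 1.47 and 1.03 with both drugs, at least 9.93-fold and 10.6-fold higher than 3 counts over the DMSO group.

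Inhibitory ligands of NK cells were read in the same way. Of 15 tested genes of this list, 2 rose and 1 fell in Be(2)-C after DAC, 3 rose and 1 fell after EPZ-6438, and 7 rose and 1 fell with both drugs. In IMR5-75 6 rose and 2 fell after DAC, 1 rose and 0 fell after EPZ-6438, and 9 rose and 2 fell with both. Over all genes 13.2% were called higher in Be(2)-C with both drugs, and in IMR5-75 19.9% after DAC and 25.7% with both. The 7 were 4 without Be(2)-C DMSO 2, the 6 were 3 without IMR5-75 DMSO 2, and the 2 of Be(2)-C after DAC were 0 without DMSO 1 or DAC 1. With genes absent from DMSO set at their bound, the IMR5-75 medians were 1.09, 0.18 and 2.09, against 0.02, 0.01 and 0.03 over all genes. HLA-C and HLA-E, genes of MHC class I, were among those that rose with both drugs. HLA-C changed by 1.42 in Be(2)-C and 4.18 in IMR5-75, and HLA-E by 2.34 and 3.07. HLA-C and HLA-E were chosen after their values were seen. The gene that fell in Be(2)-C was PCNA, the replication clamp, also a reported ligand of NKp44 (-0.68 ± 0.11, -0.96 ± 0.11 and -1.37 ± 0.11).

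NKG2D ligands can be cut from the cell surface by proteases. Of 10 listed proteases, inhibitors and chaperones of shedding, 0 changed in Be(2)-C after DAC, 1 rose after EPZ-6438, and 3 rose and 2 fell with both. Over all genes 5.35% rose there after EPZ-6438, and 13.2% rose and 10.4% fell with both. In IMR5-75 4 rose and 1 fell after DAC, 0 changed after EPZ-6438, and 5 rose and 1 fell with both. Over all genes 19.9% and 25.7% rose in IMR5-75 after DAC and with both drugs. The 3 that rose and 2 that fell in Be(2)-C were 1 and 1 without the second library with both drugs, and the rise after EPZ-6438 was lost without any 1 of the 4 libraries. At an unadjusted p under 0.05 1 rose and 2 fell in Be(2)-C after DAC and 1 rose in IMR5-75 after EPZ-6438. MMP14, a membrane protease that can shed MICA, rose in IMR5-75 from 0.931 ± 0.246 CPM to 6 ± 0.326 after DAC (2.66 ± 0.30, adjusted p = 8.23e-07) and 9.9 ± 1.45 with both (3.38 ± 0.29, adjusted p = 7.78e-09), and in Be(2)-C with both drugs (2.85 ± 0.39, adjusted p = 1.76e-05). TIMP1, a metalloprotease inhibitor, rose in IMR5-75 after DAC (4.65 ± 0.47) and with both (4.56 ± 0.47), as did MMP2 (1.11 ± 0.18 and 1.49 ± 0.18).

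Pathways known to regulate these ligands were read from lists. Of 13 genes of the DNA damage and p53 arm, which can raise NKG2D ligands, 0 rose in Be(2)-C after DAC, 2 after EPZ-6438 and 1 with both drugs, and 0, 3 and 2 fell. Over all genes 3.73%, 5.35% and 13.2% rose in Be(2)-C, and 2.97%, 4.85% and 10.4% fell. The same shares are the background of each Be(2)-C list count below. At an unadjusted p under 0.05 3 rose and 2 fell in Be(2)-C after DAC. In IMR5-75 7, 2 and 7 rose and 1, 0 and 2 fell, where 19.9%, 1.63% and 25.7% of all genes rose, and the 2 that rose after EPZ-6438 were 0 without IMR5-75 EPZ 1. The 2 of Be(2)-C after EPZ-6438 were 0 without DMSO 1. CDKN1A, the p21 cell cycle inhibitor, rose in IMR5-75 by 2.68 ± 0.15 after DAC (adjusted p = 2.58e-11) and 2.75 ± 0.15 with both (adjusted p = 1.24e-11), as did SESN1 (1.60 ± 0.12 in both) and RRM2B (1.44 ± 0.15 and 1.16 ± 0.15). CDKN1A in Be(2)-C differed from DMSO by 0.13 ± 0.20, 0.08 ± 0.20 and 0.25 ± 0.20, none called.

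Of 12 E2F and MYC regulators 0, 1 and 1 rose and 1, 2 and 3 fell in Be(2)-C, and 3, 0 and 3 rose and 4, 1 and 6 fell in IMR5-75, always in the order DAC, EPZ-6438 and both drugs. The 3 of 12 that rose in IMR5-75 are near the background of 19.9% and 25.7%, and 13.8% and 20.4% of all genes fell after DAC and with both drugs. The 4 were 1 without IMR5-75 DAC 2, and the 6 were 3 without IMR5-75 DMSO 1. E2F1, a cell cycle transcription factor, fell with both drugs in Be(2)-C (-1.64 ± 0.14, adjusted p = 3.3e-08) and in IMR5-75 (-1.36 ± 0.13, adjusted p = 5.24e-08), as did E2F2 (-1.55 ± 0.18 and -0.99 ± 0.16), while MXD4, a MYC antagonist, rose (0.75 ± 0.15 and 1.66 ± 0.15). Of 12 heat shock genes, 1, 0 and 0 rose and 0, 1 and 1 fell in Be(2)-C, and 1, 0 and 1 rose and 6, 1 and 7 fell in IMR5-75, where 13.8%, 0.344% and 20.4% of all genes fell and the 6 were 3 without DMSO 1. Each single call of this list in Be(2)-C was lost without 1 or more of its libraries. With both drugs in IMR5-75 the chaperones HSPH1 (-1.15 ± 0.11) and HSPA8 (-0.85 ± 0.11) fell, and HSPA1A, whose induction accompanies that of MICA in heat shock, rose (2.93 ± 0.36).

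Of 14 genes of the interferon gamma arm, which controls CD274 in many cells, 2, 0 and 5 rose in Be(2)-C and 6, 0 and 6 in IMR5-75, and 0 fell in any of the 6 by edgeR. At an unadjusted p under 0.05 1 fell in Be(2)-C after DAC and 1 with both drugs, and 6 rose after EPZ-6438. Over all genes 13.2% rose in Be(2)-C with both drugs, and 19.9% and 25.7% in IMR5-75 after DAC and with both. The 5 were 2 without Be(2)-C DMSO 1, and the 6 of IMR5-75 after DAC were 3 without DMSO 1, DMSO 2 or DAC 2. IRF9, an interferon response factor, rose with both drugs in Be(2)-C (1.38 ± 0.24, adjusted p = 0.000233) and IMR5-75 (1.77 ± 0.19, adjusted p = 1.85e-07). NLRC5, the class I transactivator (1.76 ± 0.28), and STAT3 (0.75 ± 0.12) rose with both drugs in IMR5-75. CD274 itself showed no detectable change beside them. Of 12 histone deacetylases and Polycomb or DNA methylation enzymes, 0, 0 and 1 rose and 1, 3 and 5 fell in Be(2)-C, and 0, 0 and 1 rose and 6, 1 and 7 fell in IMR5-75, where 13.8%, 0.344% and 20.4% of all genes fell. The 5 were 3 without the second Be(2)-C library with both drugs, and the 6 were 2 without IMR5-75 DMSO 1 and 3 without DAC 1. With both drugs UHRF1, a cofactor of maintenance methylation, fell in both lines (-1.46 ± 0.11 and -1.27 ± 0.11), as did EZH2 (-0.71 ± 0.11 and -0.56 ± 0.10); HDAC2 fell in IMR5-75 (-0.75 ± 0.12).

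Markers of other cell types were read beside the ligands. The 20 NK and T cell markers summed to 5.69 to 9.85 CPM in Be(2)-C and, in IMR5-75, to 4.88 to 5.82 in DMSO, 8 to 8.34 after DAC, 6.13 to 7.95 after EPZ-6438 and 8.73 to 10 with both drugs. KLRK1, which encodes NKG2D itself, was at 0 counts in all 16 libraries, and CD3D and KLRD1 were at 0 in 12. Only 5 of the 20 markers passed the filter and were tested. Of these 0 changed in Be(2)-C by edgeR under any treatment (1 rose and 1 fell after DAC at an unadjusted p under 0.05). In IMR5-75 1 rose after DAC, 0 after EPZ-6438 and 3 with both, where 19.9%, 1.63% and 25.7% of all genes rose. PVRIG, the receptor of PVRL2, rose with both drugs (1.00 ± 0.26, adjusted p = 0.00386), as did the adaptors CD247 (1.87 ± 0.73, adjusted p = 0.0409) and HCST (1.51 ± 0.61, adjusted p = 0.0473). The calls of CD247 and HCST were lost by DESeq2 (adjusted p = 0.0571 and 0.12) and without the second library with both drugs (1.32 and 0.91) or IMR5-75 DMSO 2 (1.22 and 2.15), and that of HCST also without DMSO 1 (1.06), with the replicate number as a block (adjusted p = 0.057) and with the line fitted alone (0.0689), so that it held in 3 of 9 alternatives. Without DMSO 1 CD247 was 3.29. The 13 blood and myeloid markers summed to 5.97 to 6.19 CPM in IMR5-75 DMSO and 11.7 to 12.2 with both drugs; PTPRC rose (3.37 ± 0.56, adjusted p = 4.37e-05), and HBB was at 0 in 14 libraries. This sum was 4.9 to 7.68 CPM in all Be(2)-C groups.

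The 13 fibroblast and Schwann cell markers in IMR5-75 summed to 79.9 to 83.6 CPM in DMSO, 298 to 305 after DAC, 121 to 123 after EPZ-6438 and 520 to 542 with both drugs. In the same order of groups, mean levels were 8.29, 13.9, 12.9 and 14.2 CPM for PVR and 0.636, 2.33, 2.05 and 6.24 for PVRL2. They were 15.4, 19.1, 15.3 and 18.7 CPM for ULBP1, 7.32, 10.6, 9.4 and 12.3 for ULBP2, and 9.87, 11.4, 11.2 and 12.3 for ULBP3. Much of the marker sum was COL3A1, which alone reached 428 CPM, while COL1A2 and SOX10 reached at most 0.943 and 0.907 CPM in any library. Of 11 tested, 8 rose after DAC, 1 after EPZ-6438 and 10 with both (19.9%, 1.63% and 25.7% of all genes), led by COL3A1 (2.97 ± 0.15 with both), COL1A1 (3.21 ± 0.25) and LUM (2.47 ± 0.22), all extracellular matrix genes. In Be(2)-C the sum was 241 to 289 CPM in all groups, with 3, 2 and 4 rising and 1 falling in each; without DMSO 2 the 3 and the 2 were 0 and 0. Of the 16 neuroblast markers 6 rose and 4 fell with both drugs in IMR5-75, where 25.7% of all genes rose and 20.4% fell. The median change of these markers was 0.06. CHGB (2.68 ± 0.15) and CHGA (2.14 ± 0.13), secretory granule proteins, were among those that rose, and MYCN (-0.65) among those that fell. The part of these markers in the results for the ligand genes was not tested.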

How the data were processed

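RNA of 16 libraries was measured. The deposited table holds raw counts per gene symbol, which the authors made with TopHat2 2.0.5 and HTSeq 0.5.3p9 on hg19, per the submitters' processing notes. The sources used here do not give the annotation or the strand setting. Per the labels, ribosomal RNA was depleted and a directional kit gave single-end reads.

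The test was that of edgeR 4.0.16 (R 4.3.3): filterByExpr, TMM, and glmQLFit and glmQLFTest over 8 groups (8 residual degrees of freedom, common biological variation 9.88%), for 16 comparisons. The method was checked on simulated data. Alternatives were DESeq2 1.42.0 (size factors; Wald test), no filter, a replicate term, each line alone, and each library left out. Leaving out libraries for lists and genes that are not ligands was chosen after seeing the data.

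The ligands and lists were chosen with earlier results of these data known. Named were all 8 ligand genes, RAET1E, RAET1G and RAET1L, at most 3 called genes per list with the smallest adjusted p, and 3 genes of closest pattern per called ligand gene; 1 gene so named is not reported here. That r used log2 CPM with a prior count of 2 and genes of mean log2 CPM of at least 1. Promoters came from RefSeq GRCh38.p14 and matched all 8; read sharing used GENCODE 29 transcripts. Low-count intervals are exact 95% intervals, and the floor is 3 counts.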

Additional observations from a re-analysis of the deposited data

Results flagged for a closer look

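In Be(2)-C ULBP1 had an interaction of the drugs of -4.17 ± 0.54 (edgeR adjusted p = 0.000288): all 4 single-drug libraries lay above DMSO and both libraries with both drugs lay below it. This difference was called in all 13 alternatives.

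The log2 response differed between the lines, taken as IMR5-75 minus Be(2)-C, for 3 genes. For ULBP1 the difference was -1.58 ± 0.42 after DAC (edgeR adjusted p = 0.0238) and -1.92 ± 0.42 after EPZ-6438 (adjusted p = 0.0243), with the rise in Be(2)-C; these were called in 7 and 6 of 12 alternatives. For PVR it was 0.88 ± 0.20 after DAC (adjusted p = 0.00935) and 0.90 ± 0.20 with both drugs (adjusted p = 0.00561), with the rise in IMR5-75, called in 11 and 12 of 12. For PVRL2 it was 1.78 ± 0.48 after DAC (adjusted p = 0.0285) and 2.36 ± 0.44 with both drugs (adjusted p = 0.000881); these were called in 7 and 12 of 12. PVRL2 started 25.8-fold lower in IMR5-75.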

How the results depend on the processing

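Of 32 called changes of ligand genes over the 16 comparisons, 30 kept their call under each alternative that used all libraries and 17 without each library in turn, and none changed sign. In IMR5-75 after EPZ-6438 the number of ligand genes called, 1, became 2 without the filter and 2 by DESeq2, and 0 with a replicate block and 0 with each line fitted alone. The number called for the line difference after EPZ-6438, 1, became 2 without the filter. Without 1 library the numbers called ranged in Be(2)-C from 0 to 1 after DAC, 1 to 3 after EPZ-6438 and 1 to 3 with both drugs, and in IMR5-75 from 2 to 3, 0 to 0 and 2 to 3. They ranged from 1 to 2 for both drugs against DAC in Be(2)-C, 0 to 1 in IMR5-75, and for the line differences from 0 to 3 after DAC, 0 to 1 after EPZ-6438 and 2 to 3 with both. They were constant at 1 for both drugs against EPZ-6438 in each line, at 1 and 0 for the interactions, and at 5 between the lines in DMSO. A left-out library leaves a lone library that is assumed to vary like the other groups.

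Over all genes, 316 called in IMR5-75 after EPZ-6438 became 740 without the filter, 309 for both drugs against DAC in IMR5-75 became 541 without it and 164 with the line alone, the Be(2)-C interaction went from 41 to 109 without the filter and the IMR5-75 interaction from 4 to 84 (14 by DESeq2, 1 with the line alone), and the EPZ-6438 line difference from 190 to 425 (292 by DESeq2). Replicate numbers did not pair the libraries: over 28 pairs of groups the correlation of same-numbered deviations ran from -0.25 to 0.229. With the replicate block PVR in IMR5-75 after EPZ-6438 was 0.64 (adjusted p = 0.0596), the only call of a ligand gene that this term changed. The changes rest on 2 libraries per group, and raw counts were under 10 for ULBP1, ULBP2 and ULBP3 in some Be(2)-C libraries and for PVRL2 in IMR5-75 DMSO, which limits their precision.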
